A study of Mus musculus with 92 samples.

Results

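The Schlafen family is a set of related mouse genes that lie side by side on chromosome 11, and 7 of them, Slfn1, Slfn2, Slfn3, Slfn4, Slfn5, Slfn8 and Slfn9, were measured in every group of myeloid cells of the study. They were chosen by name, as the entries of the deposited expression table with these symbols, and are 7 of 29956 named genes. Schlafen proteins share a core domain related to RNA-cutting enzymes, and many Schlafen genes are switched on when type I interferon signals through JAK kinases. The mouse proteins come in short forms (Slfn1 and Slfn2), intermediate forms (Slfn3 and Slfn4) and long forms that add a helicase-like region (Slfn5, Slfn8 and Slfn9). Slfn2 is known for holding T cells and monocytes in quiescence, and Slfn4 is known as a gene of activated macrophages and other myeloid cells.

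The study asked how closely macrophages grown from conditionally immortalized progenitors can stand in for microglia, and what the loss of ADAR1, the RNA-editing enzyme encoded by Adar, does to them. RNA from 92 libraries in 25 groups was sequenced in bulk. Each value is a log2 of CPM, read counts per M reads (M for 1e6), after TMM scaling, deposited by the authors with a small offset that gives each set of columns its own lowest value. The 92 columns formed 6 such sets, and groups were compared only inside a set.

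All cells came from mice of the FVB strain, and the ages of the marrow donors are not stated. BM progenitors (3 libraries) were wild-type marrow depleted of lineage-positive cells, and BM monocytes (3) were wild-type monocytes enriched from marrow by negative selection, so each may keep other marrow cells. BMD macrophages (3) were wild-type marrow cells grown for 7 days in M-CSF. ER-Hoxb8 progenitors (3) were marrow progenitors that carry an estrogen-regulated Hoxb8 retrovirus, grown in estradiol and GM-CSF, heterozygous for Cas9. They came from 3 independent lines, and estradiol was withdrawn for 4 days (ER-Hoxb8 day 4 cells, 3) or 7 days (ER-Hoxb8 macrophages, 3) in M-CSF. These 12 progenitor, monocyte and day 4 libraries formed the marrow set, with an estimated 34.4 to 48.7 M assigned reads per library, and the 2 macrophage groups were in the next set.

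BMD MLCs (6) and ER-Hoxb8 MLCs (6), where MLC stands for microglia-like cell, were marrow cells or ER-Hoxb8 cells injected into the brains of Csf1r-/- pups between postnatal days 0 and 5 and sorted with CD45 and CD11b antibodies 12 to 16 days later. The host lacks the receptor that microglia need and therefore most of its own microglia, but other blood and brain-border cells that carry these surface proteins could enter the sort. The gating figure that the paper cites for these libraries also lists GFP, a gate that would remove host cells without it, while the description of the sort names only antibodies. The labels give both MLC groups a wild-type genotype, whereas the ER-Hoxb8 cells in culture were Cas9 heterozygous. Microglia (9) were sorted from uninjected, age-matched wild-type brains. These 3 groups and both macrophage groups formed the brain set of 27 libraries, with 8.6 to 42.8 M reads. Brain cells were sorted into a different RNA reagent than the cultured cells, so sorting, extraction and the brain itself cannot be told apart in a contrast of MLCs with macrophages.

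For the knockout, Cas9-heterozygous ER-Hoxb8 progenitors received a guide against Adar (Adar1 KO) or a non-targeting control guide (NTC), and cells were taken as polyclonal pools. Replicates of the baricitinib experiment were cultures differentiated independently, and whether any replicates came from separately edited pools is not stated. If they share a pool per guide, p-values measure the spread between cultures, and guide and pool cannot be told apart. NTC progenitors (3), Adar1 KO sgRNA 1 progenitors (3), NTC macrophages (2 of 3) and Adar1 KO sgRNA 1 macrophages (3) formed a set of 11 libraries with 17.1 to 41.9 M reads. The remaining NTC macrophage library, replicate 2, had a lowest value of its own and entered no test. Adar1 KO sgRNA 2 progenitors (3) and macrophages (5) formed a set of 8 libraries with 18.5 to 27.2 M reads and no NTC group, so that guide 2 was compared only between stages. In the last set, of 33 libraries with 6.1 to 34.2 M reads, NTC and Adar1 KO sgRNA 1 macrophages received the JAK inhibitor baricitinib at 0, 0.0006, 0.016, 0.4 or 10 uM with each media change, with 3 or 4 libraries per group. The sample labels give these doses, whereas the treatment protocol gives 0.00064 and 0.16 uM in place of 0.0006 and 0.016 uM. The baricitinib libraries were sequenced at another facility than the rest.

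Slfn1, Slfn2, Slfn5, Slfn8 and Slfn9 were above 3 estimated reads in all 92 libraries, Slfn4 in 91 and Slfn3 in 85. The floor of 3 reads covers counting error only. All 7 genes passed the filter on low values in each fit. In the table, 3 other symbols begin with Slfn, and they were outside the family as chosen here. Slfnl1 stood at the lowest value in every library of the brain set, Slfn14 was near it there (mean -3.62 in BMD MLCs) and reached 2.55 ± 2.50 (SD, n = 3) in BM monocytes, and the pseudogene Slfn10-ps was expressed at a level of 3.78 in Adar1 KO sgRNA 1 macrophages.

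In the RefSeq annotation the genes run along chromosome 11 in the order Slfn5, Slfn9, Slfn8, Slfn2, Slfn1, Slfn4 and Slfn3. Their transcripts were read from GENCODE M21 on GRCm38, a build other than the GRCm39 used by the authors. Related genes share stretches of sequence, which limits how reads can be assigned. Of all 31-base words in their transcripts, 26.7% were shared with another Slfn gene for Slfn8, 19.8% for Slfn9, 15.9% for Slfn3 and 15.3% for Slfn4. Counting any other gene, the shares were 30.9% for Slfn3, 27.3% for Slfn8, 24.6% for Slfn9, 20.9% for Slfn4, 13.4% for Slfn5, 10.8% for Slfn2 and 1.96% for Slfn1. Among the 7, the closest pairs were Slfn8 with Slfn9 (792 shared words) and Slfn3 with Slfn4 (516 shared words). Slfn3 was the lowest of the 7 in most groups while Slfn4 reached high levels in some of them, so a small part of Slfn4 reads assigned to Slfn3 could change its values, and the Slfn3 values are uncertain for that reason. Of its words, Slfn5 shared 7.99% with the antisense transcript Slfn5os, and the libraries did not keep the strand.

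The promoters of all 7 (250 bases before to 50 after each start, from RefSeq, GRCm38.p6) were searched on both strands for GAAANNGAA, the core of the interferon-stimulated response element. Matches to GAAANNGAA were in the windows of Slfn5, Slfn8 and Slfn9, all long forms, and in none of Slfn1, Slfn2, Slfn3 and Slfn4, against 8.56% of all 32851 promoter windows. The 3 promoters with a match are shown 5′ to 3′ on the strand of the gene, with the match in capitals.
Slfn5, chr11:82951852-82952151, plus strand: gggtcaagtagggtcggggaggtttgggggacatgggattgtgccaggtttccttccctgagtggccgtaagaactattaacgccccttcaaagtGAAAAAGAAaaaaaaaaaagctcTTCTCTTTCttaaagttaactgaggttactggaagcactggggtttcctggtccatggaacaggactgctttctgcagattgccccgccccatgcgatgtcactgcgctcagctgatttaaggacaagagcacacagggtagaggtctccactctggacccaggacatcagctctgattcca
Slfn9, chr11:82991781-82992080, minus strand: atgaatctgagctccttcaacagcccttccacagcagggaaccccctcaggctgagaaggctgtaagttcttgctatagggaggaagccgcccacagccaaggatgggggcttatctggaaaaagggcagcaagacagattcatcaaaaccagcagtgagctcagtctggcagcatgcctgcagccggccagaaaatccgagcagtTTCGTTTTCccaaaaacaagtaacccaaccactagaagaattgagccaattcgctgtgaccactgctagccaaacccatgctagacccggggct
Slfn8, chr11:83020761-83021060, minus strand: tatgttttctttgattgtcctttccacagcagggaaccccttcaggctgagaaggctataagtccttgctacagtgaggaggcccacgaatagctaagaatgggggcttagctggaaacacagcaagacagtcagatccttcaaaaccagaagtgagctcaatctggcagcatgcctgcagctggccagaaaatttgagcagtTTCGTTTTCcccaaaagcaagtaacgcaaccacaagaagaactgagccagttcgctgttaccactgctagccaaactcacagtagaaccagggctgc
The Slfn5 window holds 2 matches, 155 bases before the start on the strand of the gene and 132 bases before it on the other strand. Slfn9 and Slfn8 carry the same 9 letters on the other strand, 44 and 47 bases before the start, and a second Slfn8 start has them 135 bases before it. The windows of Slfn8 and Slfn9 were 80.8% identical, while the 20 other pairs ranged from 46.5% to 53%. A match describes letters and is no evidence of binding, and its absence says only that these letters are not in this window.

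**Figure D1:**
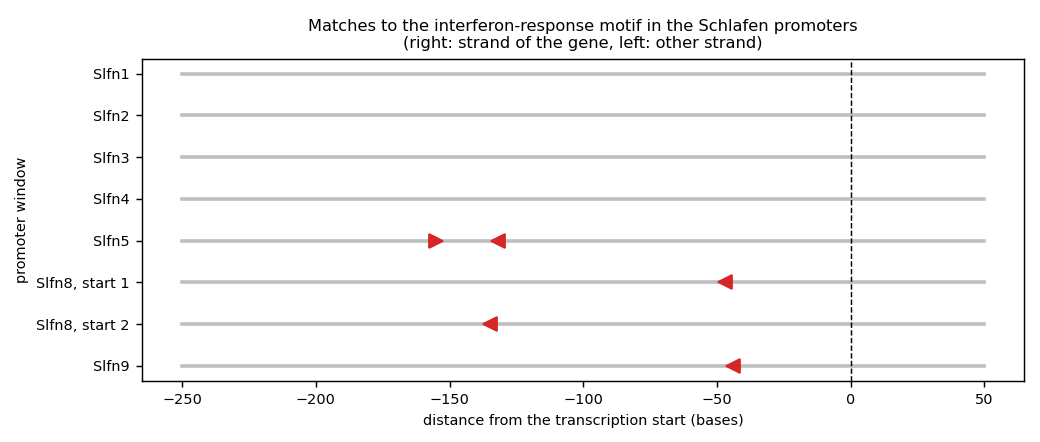
Matches to GAAANNGAA by distance from the transcription start (bases) in the promoter windows of the 7 Schlafen genes; triangles pointing right lie on the strand of the gene and those pointing left on the other strand. Matches appear only in the windows of Slfn5, Slfn8 and Slfn9.

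Some libraries stood apart from their groups. ER-Hoxb8 progenitors replicate 2 correlated at r = 0.984 with ER-Hoxb8 day 4 replicate 2 but at 0.845 to 0.890 with its own group (n = 12056 genes). Its 8 measured macrophage markers summed to 63900 CPM, a level of day 4 cells (68900, 65900 and 44200), against 16400 in replicate 1 and 686 in replicate 3, and its 7 progenitor markers summed to 33.4 CPM against 223 and 4180. Among the baricitinib libraries, Adar1 KO replicate 2 at 0.4 uM correlated at 0.888 to 0.891 with its group and at 0.947 with a KO library at 0.016 uM. Whether the labels of these 2 libraries were exchanged with others was not tested, and the values of their groups hold only if they were not. In the brain set, ER-Hoxb8 MLC replicate 6 had 889 CPM of the 9 microglia markers against 6580 to 11900 in the other 5, 7670 CPM of 5 monocyte markers against 225 to 856, and 843 CPM of 5 NK cell markers against 8.14 to 155. Microglia replicate 8 correlated at 0.690 to 0.817 with the other microglia and had 45.5 CPM of 5 neuron markers and 634 CPM of 5 oligodendrocyte markers. Schlafen calls that change without 1 of these libraries are given with and without it, as are some interferon pathway counts.

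The labels were checked against marker sums. Microglia held 69700 to 95800 CPM of microglia markers, BMD MLCs 5910 to 20900, ER-Hoxb8 MLCs 889 to 11900 and cultured macrophages at most 1020. Neutrophil markers, led by Ngp, were abundant in all 6 BMD MLC libraries (5090 to 35500 CPM) and in ER-Hoxb8 MLC replicates 4 and 5 (22100 and 46400), against 286 to 4360 in the other ER-Hoxb8 MLCs, 476 to 6830 in microglia and 26.3 to 31.3 in BMD macrophages. Erythroid markers reached 4700 CPM in ER-Hoxb8 MLC replicate 5 and 4540 in microglia replicate 5. Border macrophage markers summed to 2450 to 4790 CPM in BMD MLCs, 460 to 1650 in ER-Hoxb8 MLCs and 20.8 to 190 in microglia. B cell markers stayed at 8.41 to 175 CPM, T cell markers at 4.12 to 276, endothelial markers at 10.6 to 91.1 and astrocyte markers at 20.3 to 517 CPM across MLCs and microglia. Neutrophil sums in the marrow set also ranged widely, from 357 to 10200 CPM in BM progenitors and from 1020 to 10500 in BM monocytes. The part of these cells in the Schlafen values was not tested.

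In marrow, the question was how monocytes differ from progenitors, and Slfn2, Slfn5 and Slfn9 were called higher in BM monocytes. No member was called lower. In replicate order, Slfn2 was at 3.63, 5.57 and 4.94 in BM progenitors and at 7.45, 8.45 and 8.28 in BM monocytes. Slfn5 was at 1.98, 2.14 and 2.33 in progenitors and at 4.81, 4.33 and 4.36 in monocytes. Slfn9 was at 4.46, 4.55 and 5.02 against 6.13, 5.50 and 5.86. For all of these every monocyte library was above every progenitor library, as for 22.6% of all genes. The differences were 3.34 for Slfn2 (10.1-fold, adjusted p = 0.00628), 2.35 for Slfn5 (5.09-fold, adjusted p = 0.0179) and 1.15 for Slfn9 (2.22-fold, adjusted p = 0.0332), so 3 of 7 members were called higher where 7.01% of all 12056 genes tested were. Slfn1, at 0.65, 3.51 and 1.95 in progenitors and 6.14, 6.81 and 6.47 in monocytes, did not overlap either, but its difference of 4.44 had an adjusted p of 0.126. Slfn8, at 2.73, 3.42 and 3.49 against 5.33, 5.66 and 4.62, differed by 1.99 (adjusted p = 0.231), also with no overlap. Slfn3 (2.45, 0.79 and 1.55 against 2.09, 3.00 and 2.31) and Slfn4 (-0.53, 3.63 and 2.07 against 2.48, 3.93 and 2.89) overlapped. Without any 1 of the 6 libraries only Slfn2 remained called, with Slfn5 at 2.19 to 2.44 (adjusted p = 0.0515 to 0.0782) and Slfn9 at 1.01 to 1.33 (adjusted p = 0.0538 to 0.133). Without the scattered ER-Hoxb8 progenitor libraries in the fit, a choice made after the values were seen, 5 members were called, with Slfn1 at an adjusted p of 0.000841 and Slfn8 at 0.00168, where 14.5% of genes were called higher. In these bulk samples, fewer cells of a type and less RNA per cell cannot be told apart, and p-values measure only the spread between libraries. Of the 47 genes tested from a list of 58 genes of the interferon pathway, 8 rose and 1 fell, with a median log2 difference of 0.94 against -0.09 for all genes. With ER-Hoxb8 progenitors replicate 2 left out of the fit 17 rose, and with replicate 3 left out 16 rose. With no ER-Hoxb8 progenitors in the fit 24 rose, and 1 fell in each of these settings.

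ER-Hoxb8 progenitors were set beside BM progenitors to see what conditional immortalization leaves of the starting cell. Of the 7 members only Slfn2 was called. Slfn2 was at 8.99, 7.49 and 6.29 in ER-Hoxb8 progenitors, above all 3 BM progenitor libraries, as for 17% of all genes. The difference was 2.88 (7.35-fold, adjusted p = 0.00563), which makes 1 of 7 members called where 11.3% of genes were called higher. Slfn1 was at 8.22, 3.18 and -1.80, Slfn4 at 6.45, 1.77 and -2.41, and Slfn8 at 2.57, 3.79 and -1.81. The highest library of Slfn1 and Slfn4 was replicate 1 and the lowest replicate 3, so these lines differed among themselves by more than any group mean did. Slfn5, at 2.67, 4.17 and 1.46, and Slfn9, at 4.42, 5.45 and 5.08, were highest in replicate 2, and Slfn3 was at 1.80, 1.10 and 2.45. Without replicate 2, which resembled day 4 cells, Slfn8 was also called, lower by -2.83 (adjusted p = 0.0446), and without replicate 3 Slfn1 (3.66, adjusted p = 0.0357) and Slfn5 (1.27, adjusted p = 0.0451) were called higher. In these settings 16.1% of genes were called lower and 16.2% higher. Of the 47 interferon pathway genes tested, 9 rose and 5 fell. Without replicate 2, 7 rose and 13 fell, and without replicate 3, 12 rose and 2 fell.

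After 4 days in M-CSF without estradiol, no member passed the limma test, where 0% of genes did, and 3 members (Slfn5, Slfn8 and Slfn9) had an unadjusted p below 0.05, as did 9.36% of all genes. Slfn8, at 4.41, 3.87 and 4.12 on day 4, was above all progenitor libraries, as for 3.21% of all genes, with a difference of 2.62 (adjusted p = 0.505). Slfn5 was at 5.00, 4.03 and 4.53 on day 4, a difference of 1.75 (adjusted p = 0.497), and Slfn9 at 5.84, 5.41 and 6.15, a difference of 0.82 (adjusted p = 0.497). Slfn2 stayed at 7.58, 7.84 and 7.97, inside the progenitor range. Slfn1 (1.75, 3.34 and 2.29) and Slfn4 (4.86, 1.98 and 0.69) also lay inside theirs, and Slfn3 (2.19, 1.62 and 2.48) overlapped. Without progenitor replicate 2, Slfn5 (2.45, adjusted p = 0.00435) and Slfn8 (3.76, adjusted p = 0.0291) rose, and 11.1% of all genes were called in that fit. None of the 47 interferon pathway genes was called by limma with all libraries, and 15 had an unadjusted p below 0.05. In the fit without progenitor replicate 2, 17 of the 47 were called higher and 0 lower.

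**Figure D2:**
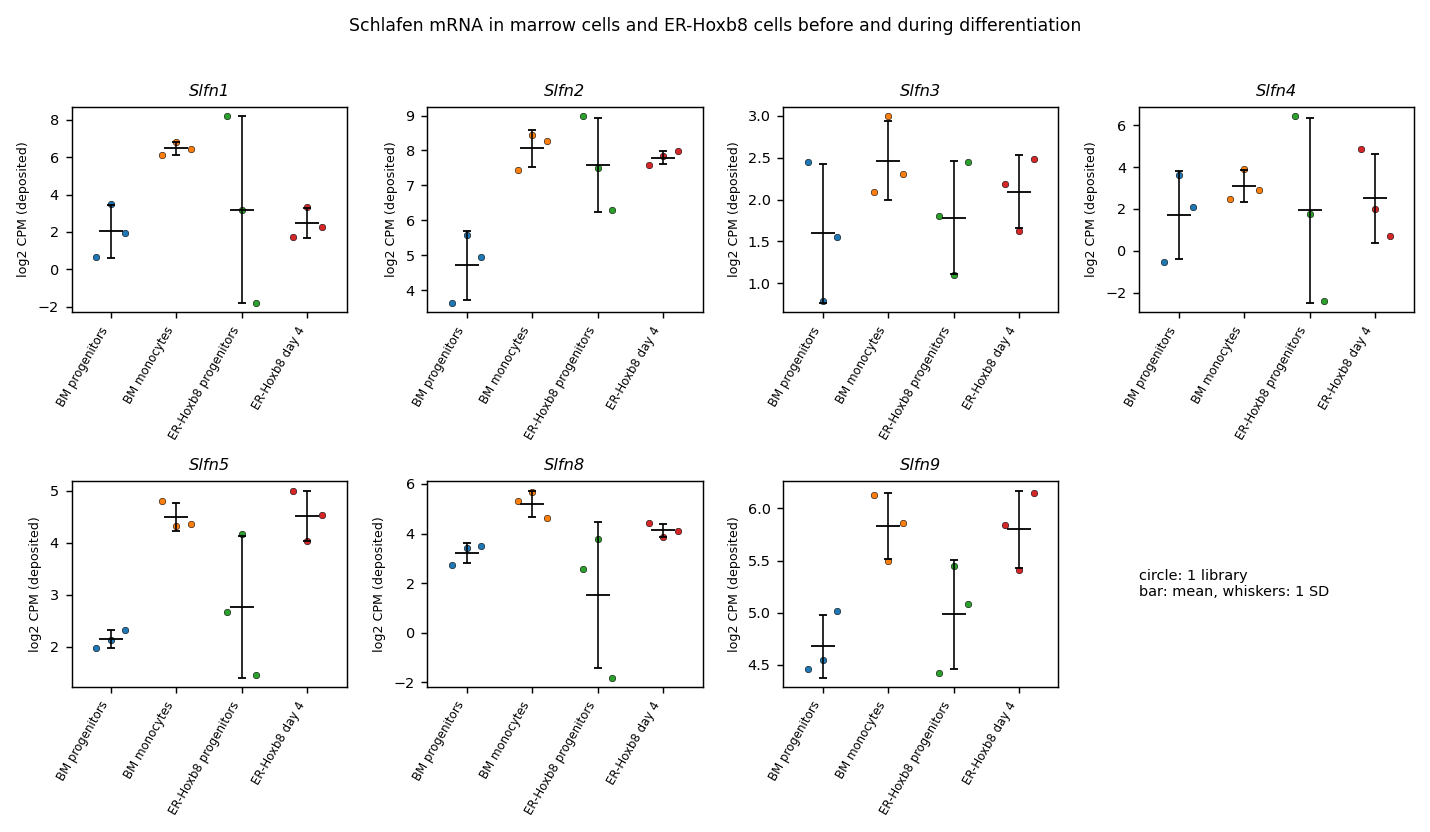
Level of each Schlafen gene (log2 CPM) in BM progenitors, BM monocytes, ER-Hoxb8 progenitors and ER-Hoxb8 day 4 cells; circles are libraries, bars the mean and whiskers 1 SD. Slfn2 was between 3.63 and 5.57 in BM progenitors and above 6 in every other library, while Slfn1 spread from -1.80 to 8.22 within ER-Hoxb8 progenitors.

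In the order of levels of the marrow set, Slfn2 had BM monocytes, day 4 cells and ER-Hoxb8 progenitors together at the top, and only the step of 2.88 down to BM progenitors was larger than the SD of the groups beside it. Slfn1 was highest in BM monocytes (mean 6.47), but the step to ER-Hoxb8 progenitors (mean 3.20 ± 5.01) was smaller than the spread of the latter. For Slfn3 and Slfn4 no neighbouring groups differed beyond their spread.

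Cultured macrophages of both origins were compared to see how alike they are after 7 days. No Schlafen gene separated them by the test. None of the 7 was called by limma or had an unadjusted p below 0.05, where 1.51% of 10764 genes were called. Slfn2 was at 6.93, 7.17 and 6.24 in BMD macrophages and at 7.55, 7.22 and 7.46 in ER-Hoxb8 macrophages. It did not overlap, which held for 11.5% of all genes in this direction and 9.36% in the other, and its difference of 0.63 had an adjusted p of 0.443. Slfn5 was at 4.93, 4.46 and 4.63 against 4.85, 4.57 and 4.53, and Slfn8 at 4.24, 4.40 and 4.72 against 5.02, 4.59 and 4.45, so both overlapped. The low Slfn1 (-1.91, -0.92 and 0.51 against 1.86, 1.80 and -0.27) and Slfn4 (-0.96, -2.10 and 1.40 against 4.75, 0.71 and -1.28) overlapped as well. Slfn4 and Slfn9 had the widest spread, with Slfn9 at 5.79, 3.44 and 7.01 in BMD macrophages and 6.01, 5.67 and 4.99 in ER-Hoxb8 macrophages. Slfn3 was at 0.43, 0.34 and 1.63 against 1.73, 1.25 and 1.64. Of 43 interferon pathway genes tested none was called by limma, and 11 had an unadjusted p below 0.05.

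MLCs were set beside cultured macrophages of the same origin, although the labels of the ER-Hoxb8 groups differ in genotype. For marrow cells, Slfn1, Slfn4 and Slfn8 were higher in the brain than in culture and Slfn3 was lower. Slfn1 went from the low culture values above to a lowest of 4.84, a median of 6.29 and a highest of 7.02 in the 6 BMD MLC libraries. Slfn4 had a lowest of 2.49, a median of 3.33 and a highest of 4.72, and Slfn8 5.22, 6.31 and 6.53. In each of these genes every BMD MLC library was above every BMD macrophage library, as for 20.8% of all genes. The rise was 6.74 for Slfn1 (107-fold, adjusted p = 2.47e-06), 4.08 for Slfn4 (16.9-fold, adjusted p = 0.00992) and 1.69 for Slfn8 (3.23-fold, adjusted p = 0.00104). Slfn3, near its floor in BMD MLCs (-2.32, -1.51 and -1.26 as lowest, median and highest), fell by 2.44 (adjusted p = 0.00928). The 4 called members compare with 30.6% of 12518 genes called in either direction. Slfn2, with a lowest of 7.39, a median of 8.12 and a highest of 8.46, lay above all BMD macrophage libraries but missed the threshold (difference 1.18, adjusted p = 0.121). Slfn5 (4.24, 4.92 and 5.27) and Slfn9 (4.32, 4.69 and 4.85) overlapped the macrophage values. Without BMD macrophage replicate 2, Slfn4 lost its call (3.30, adjusted p = 0.071) and Slfn9 gained one (-1.78, adjusted p = 0.0065). Without replicate 3, Slfn3 lost its call (-2.03, adjusted p = 0.0759). Of 49 interferon pathway genes tested, 16 rose and 3 fell (median 0.80 against -0.01 for all genes).

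ER-Hoxb8 cells were compared in the same way, and whether their change differed from that of marrow cells was not tested. Slfn1, Slfn4, Slfn5 and Slfn8 rose over ER-Hoxb8 macrophages. Slfn1 had a lowest of 5.68, a median of 7.91 and a highest of 10.50 in the 6 ER-Hoxb8 MLC libraries, 6.81 above culture (113-fold, adjusted p = 1.21e-06). Slfn8, at 5.73, 6.78 and 7.97, rose by 2.22 (4.65-fold, adjusted p = 4.81e-05), and Slfn5, at 5.80, 6.31 and 7.20, rose by 1.79 (3.46-fold, adjusted p = 0.00317). In these 3 every MLC library was above every macrophage library, as for 14.4% of all genes. Slfn4, with a lowest of 2.36, a median of 5.33 and a highest of 8.71, rose by 4.06 (16.6-fold, adjusted p = 0.00931) but overlapped macrophage replicate 1, and without macrophage replicate 3 its difference was 2.72 (adjusted p = 0.111). With only the MLC libraries of the series named GFPHox (replicates 1 to 3) it was 2.67 (adjusted p = 0.119). The 4 of 7 called higher compare with 16.6% of all genes. Slfn9 (6.39, 6.73 and 6.95) lay above all macrophage libraries with an adjusted p of 0.0797, and Slfn2 (7.35, 8.58 and 10.11) overlapped them. Slfn3 ranged from -1.73 to 1.74. The highest Slfn1, Slfn2, Slfn4, Slfn5 and Slfn8 values were all in replicate 6, the library with few microglia markers, and without it the same 4 members were called. Interferon pathway genes moved widely here: 34 of 49 rose and 3 fell, with a median of 2.37 against -0.15, among them the ubiquitin-like target Isg15 (8.08 against 2.96, adjusted p = 8.4e-09).

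Against microglia, the resident cells that MLCs are meant to replace, Slfn1, Slfn2, Slfn4 and Slfn5 were called higher in both kinds of MLC. Slfn2 showed this most firmly: the 9 microglia libraries had a lowest of 2.19, a median of 4.13 and a highest of 5.03, below every MLC and cultured macrophage library. Its difference from microglia was 4.11 in BMD MLCs (17.3-fold, adjusted p = 4.91e-08) and 4.66 in ER-Hoxb8 MLCs (25.3-fold, adjusted p = 2.08e-09). Slfn1 was at 0.12, 2.86 and 4.16 in microglia (lowest, median and highest), below every MLC library. It was higher by 3.32 in BMD MLCs (9.98-fold, adjusted p = 0.000347) and by 5.30 in ER-Hoxb8 MLCs (39.4-fold, adjusted p = 2.4e-07). Slfn4, at -2.40, -0.01 and 2.12 in microglia, was likewise below every MLC library, by 3.67 (adjusted p = 0.0028) and 5.59 (adjusted p = 1.25e-05). Slfn5, at 2.03, 3.02 and 4.34 in microglia, was higher by 1.60 in BMD MLCs (adjusted p = 0.000768), where the groups overlapped, and by 3.22 in ER-Hoxb8 MLCs (adjusted p = 1.47e-08), where they did not. The other 3 members were called in ER-Hoxb8 MLCs and not in BMD MLCs, where all 7 were called with libraries weighted by quality. Slfn8 was at 5.26, 5.86 and 6.08 in microglia. Its difference was 0.40 in BMD MLCs (adjusted p = 0.344) and 1.16 in ER-Hoxb8 MLCs (adjusted p = 0.00136), with overlap in both, and the 2 kinds of MLC were not called apart for it (0.76, adjusted p = 0.0856). Slfn9, at 3.06, 3.79 and 5.65, and Slfn3, at -3.62, -2.76 and -0.52, were higher in ER-Hoxb8 MLCs by 2.81 (adjusted p = 1.84e-06) and 2.82 (adjusted p = 0.000104). In BMD MLCs 4 of 7 members were called higher against 10.9% of all genes, and in ER-Hoxb8 MLCs 7 of 7 against 15.0%. Every MLC library was above every microglia library for 6.20% of all genes in BMD MLCs and for 5.40% in ER-Hoxb8 MLCs. These comparisons share the microglia libraries, and no call changed when any library, microglia replicate 8 and ER-Hoxb8 MLC replicate 6 included, was left out. Of 49 interferon pathway genes tested, 21 rose and 1 fell in BMD MLCs, and 36 rose and 2 fell in ER-Hoxb8 MLCs. The neutrophil sums given above also differed between MLCs and microglia.

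Between the 2 kinds of MLC, the origin of the donor cell was compared in the same host. Slfn5, Slfn9 and Slfn3 were higher in ER-Hoxb8 MLCs. Slfn9 had the cleanest gap, with every ER-Hoxb8 MLC library at 6.39 or more and every BMD MLC library at 4.85 or less. Its difference was 2.10 (4.29-fold, adjusted p = 0.00111). Slfn5 did not overlap either and was higher by 1.63 (3.09-fold, adjusted p = 0.00295), and 4.15% of all genes had every ER-Hoxb8 MLC library above every BMD MLC library. Slfn3 overlapped, with a difference of 1.84 (adjusted p = 0.0276). The 3 of 7 compare with 6.95% of all genes called higher. Slfn1 (1.98, adjusted p = 0.0552), Slfn8 (0.76, adjusted p = 0.0856), Slfn4 (1.92, adjusted p = 0.181) and Slfn2 (0.55, adjusted p = 0.475) were not called. The Slfn3 call was lost without BMD MLC replicate 2 (1.79, adjusted p = 0.0537) or 3 (1.71, adjusted p = 0.0535) and without ER-Hoxb8 MLC replicate 1 (1.71, adjusted p = 0.0516), 4 (1.54, adjusted p = 0.0636) or 6 (1.65, adjusted p = 0.0608). Slfn1 was called without BMD MLC replicate 3 (2.19, adjusted p = 0.0451), ER-Hoxb8 MLC replicate 1 (2.17, adjusted p = 0.0462) or 2 (2.43, adjusted p = 0.0187), and Slfn8 without ER-Hoxb8 MLC replicate 2 (0.99, adjusted p = 0.0173), which gave 5 calls where 6.45% of genes were called higher. The ER-Hoxb8 MLC libraries carry names of 2 series, GFPHox (replicates 1 to 3) and WTHox (replicates 4 to 6). With the GFPHox libraries alone Slfn3 was at 1.36 (adjusted p = 0.177), and with the WTHox libraries alone Slfn1 (3.11, adjusted p = 0.00946) and Slfn4 (3.31, adjusted p = 0.0409) joined for 5 calls. In these settings 6.34% and 5.68% of genes were called higher. Of 49 interferon pathway genes tested, 30 were higher in ER-Hoxb8 MLCs and 2 lower (median 2.43 against -0.22), Isg15 at 8.08 against 3.13 among them, while neutrophil and microglia marker sums were higher in most BMD MLC libraries.

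**Figure D3:**
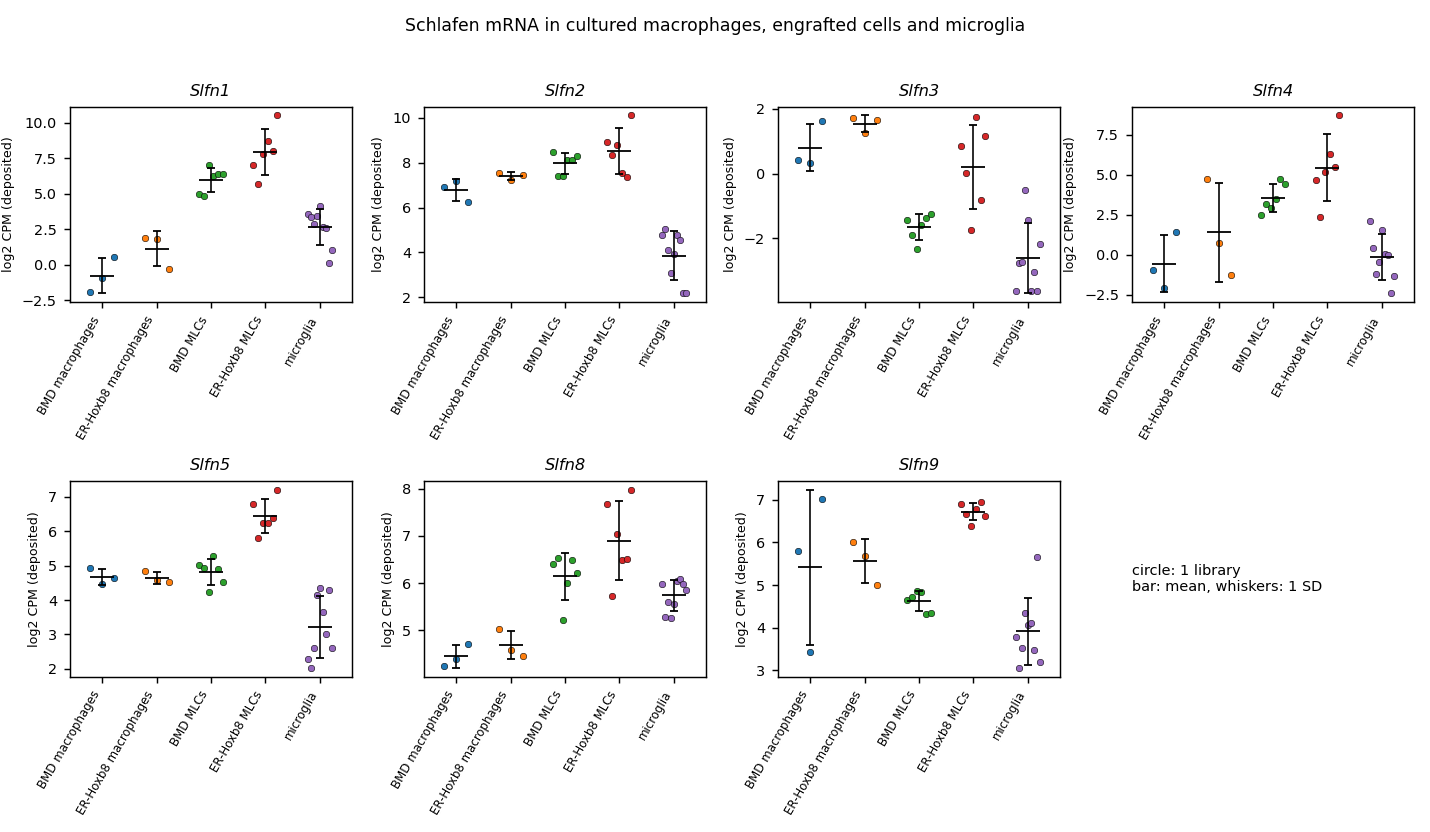
Schlafen levels (log2 CPM, 1 panel per gene) in cultured macrophages, MLCs and microglia, with marrow-derived and ER-Hoxb8 cells side by side; circles are libraries, bars the mean and whiskers 1 SD. Slfn2 was lowest in microglia (at most 5.03), whereas Slfn8 in microglia (5.26 to 6.08) lay above all cultured macrophages (4.24 to 5.02).

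The order of levels in the brain set differed from member to member. For Slfn1, every step between the means from ER-Hoxb8 MLCs (mean 7.95) through BMD MLCs (5.97), microglia (2.65) and ER-Hoxb8 macrophages (1.13) to BMD macrophages (-0.77) was larger than the SD of the groups beside it, but the 2 kinds of MLC overlapped, as did the 2 kinds of macrophage, and neither of these steps was called. Microglia and ER-Hoxb8 macrophages overlapped too, and that step was not tested. In Slfn2 the MLCs had the highest means but were not called above the macrophages of their origin, and microglia (3.85) alone lay apart from the other 4 groups. Slfn5 had ER-Hoxb8 MLCs alone at the top, with all their libraries at 5.80 or more and all other libraries at 5.27 or less. Slfn9 had its highest mean in ER-Hoxb8 MLCs, but BMD macrophage replicate 3 (7.01) lay above all of them. All BMD MLC libraries of Slfn9 (at most 4.85) lay below all ER-Hoxb8 macrophage libraries (at least 4.99), a contrast that was not tested. Slfn8 had ER-Hoxb8 MLCs, BMD MLCs and microglia together above both macrophage groups. Slfn3 had its highest mean in ER-Hoxb8 macrophages, and for Slfn4 no step exceeded the spread.

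Per kilobase of transcript, the scale on which genes can be set side by side, Slfn2 was the most abundant member in most groups, with 272 ± 207 CPM per kb (SD, n = 6) in ER-Hoxb8 MLCs and 156 ± 45.5 in BMD MLCs. Microglia differed, since Slfn8 came first with 18.1 ± 3.81 CPM per kb (n = 9) and Slfn2 second with 10.7 ± 6.33, a step larger than either SD. Slfn1 was second to Slfn2 in both kinds of MLC, at 226 ± 279 and 38.4 ± 20.1. Without ER-Hoxb8 MLC replicate 6 it was at 115 ± 74.3 (n = 5) and Slfn2 at 194 ± 89.2. In Adar1 KO sgRNA 1 macrophages Slfn2 reached 656 ± 142 CPM per kb (n = 3), Slfn1 408 ± 147 and Slfn4 299 ± 121, against 180 ± 20.1, 7.98 ± 0.907 and 15.7 ± 2.02 in NTC macrophages (n = 2). By these means Slfn1 was among the less abundant members in NTC macrophages and second to Slfn2 in the knockout, where its step to Slfn4 was within the SD. Lengths were medians of coding transcripts in GENCODE M21 (1.86 kb for Slfn1, 3.70 kb for Slfn4), and other lengths could change the order. Before division by length, the mean log2 CPM in the knockout was higher for Slfn4 (10.04) than for Slfn1 (9.5).

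The knockout comparison asked what ADAR1, which edits double-stranded RNA and so keeps it from the sensor MDA5, prevents in these cells. The targeted gene itself was measured first. Adar mRNA was at 6.96, 7.15 and 7.01 in Adar1 KO sgRNA 1 macrophages and at 5.73 and 5.67 in NTC macrophages, higher in the knockout by 1.34 (adjusted p = 0.000976). In progenitors it was at 4.36, 4.23 and 4.24 against 4.20, 3.42 and 4.28 (difference 0.31, adjusted p = 0.924). A guide can end the protein without lowering the mRNA, and Adar is itself an interferon target, so this level does not check the knockout.

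In progenitors, no Schlafen gene was called different with guide 1. Slfn2 was at 5.53, 6.01 and 5.92 with guide 1 and at 5.57, 6.07 and 5.60 in NTC progenitors, so the groups overlapped. Slfn1 (-1.21, 0.04 and -0.68 against -0.41, -0.27 and -0.90) and Slfn4 (4.22, 3.88 and 4.43 against 3.48, 3.50 and 4.29) overlapped too. Slfn8 was at -0.29, -0.29 and -0.91 against -0.59, -0.15 and -0.87, Slfn5 at 1.23, 1.59 and 1.99 against 1.59, 1.72 and 1.63, and Slfn9 at 5.24, 5.00 and 4.92 against 5.36, 5.07 and 5.02. Only Slfn3 did not overlap (1.71, 1.75 and 1.90 against 1.69, 1.66 and 1.55), with a difference of 0.15 (adjusted p = 0.99), and 4.81% of all genes had every guide 1 library above every NTC library and 6.4% every one below. None of the 7 was called by limma and none had an unadjusted p below 0.05, where 0.936% of 11008 genes were called. The 95% interval of the Slfn2 difference ran from -0.35 to 0.49, and that of Slfn4 from -0.20 to 1.05. Slfn3 and Slfn4 were higher and Slfn9 lower in each pair of libraries with the same number, and with the number as a block their adjusted p-values were 0.902, 0.759 and 0.895. Of 47 interferon pathway genes tested none rose and 1 fell, and 8 had an unadjusted p below 0.05.

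After 7 days of differentiation, all 7 Schlafen genes were higher in Adar1 KO sgRNA 1 macrophages than in NTC macrophages. The short Slfn1 moved most, at 9.99, 9.64 and 8.88 in the knockout against 4.01 and 3.78 in NTC, a rise of 5.60 (48.6-fold, 95% interval 4.76 to 6.44, adjusted p = 1.86e-06). Slfn2, already abundant in NTC macrophages at 8.33 and 8.11, was at 10.35, 10.14 and 9.72 in the knockout, a rise of 1.85 (3.6-fold, adjusted p = 8.8e-05). Slfn4 was at 10.66, 9.87 and 9.58 against 5.72 and 5.99, a rise of 4.18 (18.1-fold, adjusted p = 3.79e-06). For these 3 genes the lowest knockout library lay above the highest NTC library by more than the spread of either group. Slfn3, the least abundant, was at 2.51, 2.04 and 2.19 against 0.70 and 0.97, a rise of 1.42 (2.67-fold, adjusted p = 0.000943). Among the long forms, Slfn8 was at 9.22, 8.82 and 8.53 against 6.13 and 6.06 (rise 2.76, 6.79-fold, adjusted p = 2.92e-05), and Slfn9 at 7.31, 6.93 and 6.55 against 4.31 and 4.21 (rise 2.67, 6.35-fold, adjusted p = 3.42e-06). Slfn5 was at 8.32, 8.40 and 8.24 against 6.39 and 6.21 (rise 2.02, 4.07-fold, adjusted p = 2.11e-05). No member overlapped between the groups, where 29.2% of all genes had every knockout library above every NTC library, and 7 of 7 were called higher where 14.5% of genes were. NTC macrophage replicate 2, in no test because of its own lowest value, read 3.57 for Slfn1, 7.57 for Slfn2, 5.66 for Slfn4, 6.25 for Slfn5, 5.90 for Slfn8 and 4.25 for Slfn9 on its own scale, and its erythroid markers summed to 260 CPM against 0.207 and 0.262 in the other NTC macrophages. Only 2 NTC libraries entered this test, and all 7 calls held when any library was left out, a setting that can leave 1 NTC library whose spread is taken from the other groups.

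Slfn10-ps, which shares 32.4% of its 31-base words with other Slfn genes, was at a mean of 3.78 against 3.08 and was not called (0.70, adjusted p = 0.0634). Of the 5 nearest genes on each side of the cluster, 6 were tested and none was called by limma, with 1 at an unadjusted p below 0.05. Of all 11008 genes, 1599 were called higher and 802 lower, and 35.8% had an unadjusted p below 0.05. With 6 genes tested, the absence of a call does not set the neighbours apart from other genes. Around the Schlafen genes, 33 of 47 interferon pathway genes tested rose and 4 fell, with a median of 2.52 against 0.05 for all genes. Among them Isg15 was at 8.07 against 3.38 (adjusted p = 4.17e-06) and the transcription factor Irf7 at 9.86 against 4.25 (adjusted p = 3.05e-07). The receptor gene Ifnar1 fell by 0.62 (adjusted p = 0.0292), and Ifnb1, which encodes interferon beta, was at 2.08, 1.55 and 0.09 in the knockout, against a mean of -2.85 in NTC macrophages, and was too low to be tested.

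The change from progenitor to macrophage was compared between NTC and guide 1 cells. From NTC progenitors to NTC macrophages Slfn8 rose by 6.63 (99.2-fold, adjusted p = 2.24e-09), Slfn5 by 4.65 (25.2-fold, adjusted p = 2.23e-09), Slfn1 by 4.42 (21.5-fold, adjusted p = 9.52e-07), Slfn2 by 2.47 (adjusted p = 9.36e-07) and Slfn4 by 2.10 (adjusted p = 9.66e-05). Slfn9 fell by 0.89 (adjusted p = 0.0018) and Slfn3 fell by 0.80 (adjusted p = 0.00718), so 7 of 7 were called in a contrast where 71.8% of genes were. In Adar1 KO sgRNA 1 cells the rises were 10.12 for Slfn1 (1110-fold, adjusted p = 5.09e-10), 9.36 for Slfn8 (655-fold, adjusted p = 8.78e-11), 6.72 for Slfn5 (105-fold, adjusted p = 7.66e-11), 5.86 for Slfn4 (58-fold, adjusted p = 6.77e-09) and 4.25 for Slfn2 (19-fold, adjusted p = 3.92e-09). Slfn9, lower in NTC macrophages than in NTC progenitors, rose here by 1.87 (adjusted p = 1.95e-06), and Slfn3 differed by 0.46 (adjusted p = 0.0567). This made 6 of 7 higher against 34.1% of genes. The difference between the 2 changes, tested as an interaction, was called for all 7 members where 9.90% of genes were called higher: 5.69 for Slfn1 (adjusted p = 3.36e-05), 3.76 for Slfn4 (adjusted p = 0.000139), 2.76 for Slfn9 (adjusted p = 5.34e-05) and 2.72 for Slfn8 (adjusted p = 0.000507). It was 2.06 for Slfn5 (adjusted p = 0.000301), 1.78 for Slfn2 (adjusted p = 0.00168) and 1.27 for Slfn3 (adjusted p = 0.0174). Slfn3 alone depended on 1 library: without NTC macrophage replicate 1 its change in NTC cells was -0.67 (adjusted p = 0.0649) and its interaction 1.13 (adjusted p = 0.0777), and without knockout macrophage replicate 2 its rise there was 0.57 (adjusted p = 0.0492). Interferon pathway genes rose in 36 and fell in 4 of 47 in NTC cells and rose in 43 and fell in 2 in the knockout, with 30 higher and 2 lower in the interaction.

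A second guide gave cells measured on a separate scale. With Adar1 KO sgRNA 2, the progenitors had Slfn1 at 0.02, -0.63 and -0.62 and the macrophages at 8.35, 8.59, 8.44, 8.38 and 8.66. Slfn2 went from 4.29, 4.36 and 4.18 to 9.17, 9.20, 9.22, 9.21 and 9.34, and Slfn4 from 3.97, 4.01 and 3.79 to 8.45, 8.68, 8.48, 8.64 and 8.53. In these genes every macrophage library was far above every progenitor library, with rises of 8.89 (476-fold, adjusted p = 5.52e-12), 4.95 (30.9-fold, adjusted p = 3.29e-13) and 4.63 (24.8-fold, adjusted p = 3e-12). Slfn8 went from 1.04, -0.06 and -0.06 to 8.30, 8.27, 8.25, 8.23 and 8.35, and Slfn5 from 1.51, 0.63 and 1.11 to 7.08, 6.69, 7.05, 7.01 and 6.78. Slfn9 went from 5.58, 5.49 and 5.47 to 6.77, 6.75, 6.96, 6.89 and 6.86, and Slfn3 from 2.52, 2.68 and 2.85 to 3.09, 3.08, 3.37, 2.88 and 3.68. These last steps were small, but no group overlapped, and 37.4% of all genes had every macrophage library above every progenitor library. The rises were 7.98 for Slfn8 (adjusted p = 1.91e-10), 5.84 for Slfn5 (adjusted p = 4.19e-10), 1.33 for Slfn9 (adjusted p = 6.86e-09) and 0.54 for Slfn3 (adjusted p = 0.0193), so 7 of 7 were called higher where 39.7% of 10698 genes were. Without progenitor replicate 1 the Slfn3 call was lost (0.46, adjusted p = 0.0746). With no NTC group on this scale, the share of differentiation and of the guide cannot be told apart. Adar was at 4.35, 4.56 and 4.36 in these progenitors and at a mean of 7.01 in the macrophages, and 44 of 47 interferon pathway genes rose while 2 fell.

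**Figure D4:**
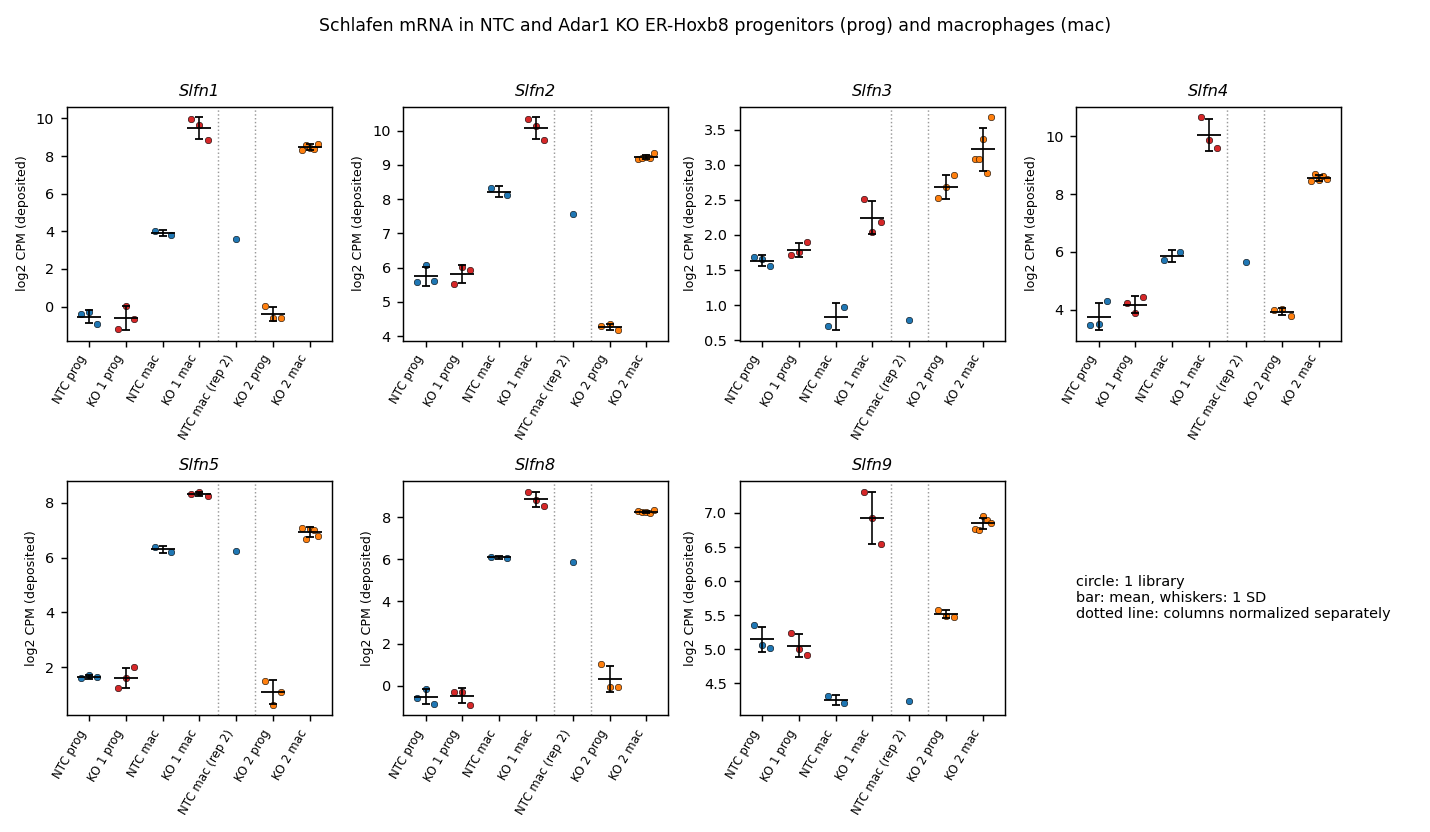
Level of each Schlafen gene (log2 CPM) in NTC, Adar1 KO sgRNA 1 (KO 1) and Adar1 KO sgRNA 2 (KO 2) progenitors and macrophages, with columns normalized separately divided by dotted lines; circles are libraries, bars the mean and whiskers 1 SD. Slfn1 read 8.88 to 9.99 in KO 1 macrophages against 4.01 and 3.78 in NTC macrophages, and KO 1 and NTC progenitors overlap for it.

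The order of levels within the guide 1 set was the same for Slfn1, Slfn2, Slfn4, Slfn5 and Slfn8, with KO macrophages first, NTC macrophages next and the 2 progenitor groups last and not apart. For Slfn9 and Slfn3 NTC macrophages came last, below both progenitor groups.

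The baricitinib experiment asked whether blocking JAK kinases, which pass on the interferon signal, changes this state. Without inhibitor, 5 members were again higher in Adar1 KO than in NTC macrophages. Slfn1 was at 8.47, 8.35 and 8.66 against 4.77, 4.14 and 4.14 (rise 4.14, 17.7-fold, adjusted p = 0.00179). Slfn4 was at 9.88, 9.00 and 8.73 against 6.20, 5.82 and 5.78 (rise 3.27, 9.66-fold, adjusted p = 0.00148), and Slfn8 at 8.58, 8.36 and 8.44 against 5.75, 5.41 and 5.40 (rise 2.93, 7.64-fold, adjusted p = 0.00421). The groups were far apart for each, and 20.5% of all genes had every knockout library above every NTC library. Slfn5 was at 8.15, 8.04 and 7.61 against 6.07, 5.16 and 5.11 (rise 2.49, 5.62-fold, adjusted p = 0.0301), and Slfn2 at 8.83, 9.54 and 9.78 against 7.94, 7.74 and 8.03 (rise 1.48, 2.79-fold, adjusted p = 0.00704). Slfn3 (2.58, 2.14 and 3.30 against 1.83, 1.16 and 1.30) did not overlap but had an adjusted p of 0.0986. The 5 of 7 compare with 11.5% of 11152 genes called higher. Slfn9 overlapped here, at 6.30, 6.44 and 6.58 against 6.07, 6.34 and 6.13 (difference 0.26, adjusted p = 0.717), unlike in the guide 1 set, where NTC macrophages were at 4.31 and 4.21. The 2 experiments were on separate scales and their difference was not tested. The Slfn5 call was lost without NTC replicate 2 (2.35, adjusted p = 0.0885) or 3 (2.32, adjusted p = 0.0911) or KO replicate 1 (2.38, adjusted p = 0.0853) or 2 (2.44, adjusted p = 0.0737). Adar was at a mean of 6.77 in the knockout and 4.92 in NTC (adjusted p = 0.0051), and 29 of 48 interferon pathway genes rose while 1 fell.

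The spread of this fit was widened by KO replicate 2 at 0.4 uM, and changes in Schlafen calls without that library are noted below, a choice made after the values were seen. For the comparison at 0 uM, leaving it out gave 6 calls, with Slfn3 at an adjusted p of 0.0372, where 14.5% of genes were called higher.

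At the lower doses 5 or 6 members were higher in the knockout than in the control. At 0.0006 uM Slfn1 was at 8.54, 9.05 and 8.92 in the knockout and at 3.75, 4.23 and 4.05 in NTC, and Slfn2 at 9.86, 9.75 and 9.85 against 7.79, 7.74 and 7.78. Slfn4 was at 9.01, 8.87 and 9.00 against 5.47, 5.95 and 5.62, Slfn5 at 7.76, 7.88 and 7.65 against 4.99, 5.02 and 5.16, and Slfn8 at 8.45, 8.54 and 8.21 against 5.17, 5.69 and 5.44. None of these overlapped, as for 21.4% of all genes higher in the knockout, while Slfn9 (6.30, 6.88 and 6.24 against 6.32, 6.35 and 6.63) and Slfn3 (3.15, 2.37 and 1.5 against 1.41, 0.68 and 1.64) did. The same 5 members as without inhibitor, Slfn1, Slfn2, Slfn4, Slfn5 and Slfn8, were called higher, against 13.5% of genes, with rises from 2.05 for Slfn2 (adjusted p = 0.000276) to 4.82 for Slfn1 (adjusted p = 0.000299). At 0.016 uM Slfn1 was at 9.47, 9.47 and 8.84 in the knockout and at 2.33, 2.27, 2.17 and 2.43 in NTC. Its difference was 6.96 (125-fold, adjusted p = 7.14e-07), the highest estimate of the 5 doses, though the interaction with this dose was not called (2.82, adjusted p = 0.473). Slfn8, at 8.61, 8.65 and 8.36 against 4.10, 4.54, 4.71 and 4.55, differed by 4.07 (adjusted p = 4.51e-05), and Slfn4, at 9.10, 8.81 and 9.00 against 4.85, 5.01, 4.89 and 4.96, by 4.05 (adjusted p = 4.2e-05). Slfn5, at 7.96, 7.88 and 7.62 against 4.10, 3.93, 3.51 and 4.12, differed by 3.90 (adjusted p = 0.000338). Slfn2, at 9.82, 10.01 and 9.83 against 7.53, 7.36, 7.45 and 7.50, differed by 2.43 (adjusted p = 1.22e-05). None of these members overlapped, and neither did Slfn3 (2.76, 2.89 and 2.48 against 0.93 to 1.83) or Slfn9 (6.96, 6.93 and 6.49 against 6.17, 6.28, 6.28 and 6.38), and 22.6% of all genes had every knockout library above every NTC library. At this dose 6 of 7 were called higher against 16.6% of genes, Slfn3 among them (1.48, adjusted p = 0.0275), and without the 0.4 uM library 7 were against 19.2%, with Slfn9 at 0.52 (adjusted p = 0.00511). The Slfn3 call was lost without NTC replicate 1 (1.38, adjusted p = 0.0632), 2 (1.41, adjusted p = 0.0606) or 3 (1.45, adjusted p = 0.0528) or KO replicate 1 (1.46, adjusted p = 0.0715) or 2 (1.39, adjusted p = 0.0896) at this dose. Interferon pathway genes were higher in 28 and lower in 2 of 48 at 0.0006 uM, and higher in 34 and lower in 3 at 0.016 uM.

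At 0.4 uM the 3 knockout libraries split. Slfn1 was at 2.75, 10.48 and 4.45, Slfn4 at 4.91, 10.82 and 5.78, Slfn5 at 1.56, 8.33 and 3.75, and Slfn8 at 3.79, 9.88 and 4.97. Replicate 2 was thus above every untreated knockout library for these genes while replicates 1 and 3 were below all of them. Its Ifnb1 was at 6.02 against -2.78 and -2.29 in the other 2, and its endothelial markers summed to 237 CPM against 73.4 and 68.4. Slfn2 (7.59, 10.66 and 8.17) and Slfn9 (6.05, 9.28 and 5.92) split the same way. NTC macrophages at this dose had Slfn1 at 1.19, 1.39, 1.46 and 1.68, Slfn2 at 7.13, 7.08, 6.92 and 7.34, and Slfn4 at 4.77, 4.80, 4.88 and 4.75. Every knockout library lay above them for these 3 genes, as for 12% of all genes. Slfn5 (3.06, 3.43, 2.08 and 3.72 in NTC), Slfn8 (3.53 to 4.07), Slfn9 (6.27, 6.19, 6.36 and 6.31) and Slfn3 (1.81, 1.57, 0.89 and 1.76 against 0.92, 3.67 and 1.43 in the knockout) overlapped. With all libraries, 4 of 7 were called higher in the knockout against 7.68% of genes: Slfn1 (4.46, adjusted p = 0.00113), Slfn8 (2.49, adjusted p = 0.0172), Slfn4 (2.37, adjusted p = 0.0219) and Slfn2 (1.69, adjusted p = 0.0033). Without replicate 2 only Slfn1 (2.17, adjusted p = 0.000299) and Slfn2 (0.76, adjusted p = 0.0134) were called, where 3.68% of genes were called higher, and Slfn4 was at 0.55 (adjusted p = 0.181) and Slfn8 at 0.66 (adjusted p = 0.124). Without replicate 1 Slfn5 (2.96, adjusted p = 0.00259) and Slfn9 (1.32, adjusted p = 0.0318) were also called, and without replicate 3 Slfn9 was (1.38, adjusted p = 0.0231). With all libraries 26 of 48 interferon pathway genes were higher in the knockout, and without replicate 2 there were 9 higher and 1 lower of 47 tested.

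At 10 uM the knockout no longer stood above the control. Slfn1 was at 2.44, 1.15, 0.70 and 1.98 in Adar1 KO and at 0.85, -0.04 and 0.78 in NTC macrophages, Slfn4 at 4.83, 4.06, 4.30 and 4.71 against 4.48, 4.27 and 4.57, and Slfn8 at 2.99, 2.08, 2.36 and 2.39 against 2.74, 2.59 and 3.21. Slfn2 was at 6.82, 6.18, 6.54 and 6.73 against 6.68, 6.36 and 6.97, Slfn5 at 1.35, 0.87, 1.45 and 1.46 against 2.53, 0.74 and 2.49, Slfn9 at 5.67, 6.31, 6.11 and 6.17 against 6.35, 6.51 and 6.26, and Slfn3 at 2.02, 1.18, 2.33 and 0.27 against 1.15, 1.29 and 2.34. The groups overlapped for all 7 members, and none was called by limma or had an unadjusted p below 0.05, where 45.3% of all genes were called in either direction. The 95% interval of the Slfn2 difference ran from -0.87 to 0.66, but that of Slfn1 ran from -0.78 to 2.86 and does not exclude a remaining gap. Without KO replicate 2 at 0.4 uM, Slfn1 was called (1.04, adjusted p = 0.0102), where 24.4% of genes were called higher. Adar was lower in the knockout at this dose, at 2.16 against 3.52 (adjusted p = 0.0146), and 3 of 48 interferon pathway genes were higher and 6 lower. Without KO replicate 2 at 0.4 uM, 7 of 47 were higher and 11 lower.

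Read along the dose in NTC macrophages, the means of Slfn1, Slfn2, Slfn4, Slfn5 and Slfn8 were lower at each higher dose, though with all libraries only the drop at 10 uM was called, and not for Slfn4. Slfn1 means were 4.35, 4.01, 2.30, 1.43 and 0.53 from 0 to 10 uM, and Slfn8 means 5.52, 5.43, 4.48, 3.73 and 2.85. Slfn5 had means of 5.44, 5.06, 3.92, 3.07 and 1.92, and Slfn2 of 7.90, 7.77, 7.46, 7.12 and 6.67. Slfn4 means were 5.93, 5.68, 4.93, 4.80 and 4.44. Slfn9 did not follow, with means of 6.18, 6.43, 6.28, 6.28 and 6.37, nor did Slfn3. At 0.0006 uM none of the 7 was called by limma or had an unadjusted p below 0.05 (0% of genes called). At 0.016 uM none was called by limma, 1 (Slfn1, -2.05) had an unadjusted p below 0.05 (0% of genes called, 3.89% at an unadjusted p below 0.05), and all 4 treated libraries lay below all untreated ones for Slfn1, Slfn2, Slfn4, Slfn5 and Slfn8, as for 5.48% of all genes. At 0.4 uM none was called by limma and 4 had an unadjusted p below 0.05 (Slfn1, Slfn2, Slfn5 and Slfn8), where 0.00897% of genes were called and 5.36% had an unadjusted p below 0.05. At 10 uM 4 of 7 fell, against 7.94% of genes called lower: Slfn1 by -3.82 (14.1-fold lower, adjusted p = 0.00815), Slfn5 by -3.52 (11.5-fold lower, adjusted p = 0.00642), Slfn8 by -2.67 (6.38-fold lower, adjusted p = 0.0165) and Slfn2 by -1.23 (2.35-fold lower, adjusted p = 0.0391). Slfn4, at 4.48, 4.27 and 4.57, lay below the untreated libraries with a difference of -1.49 (adjusted p = 0.18). Without KO replicate 2 at 0.4 uM in the fit, 3 members were called at 0.016 uM (Slfn1, adjusted p = 0.014; Slfn4, adjusted p = 0.0381; Slfn8, adjusted p = 0.0447), 5 at 0.4 uM and 5 at 10 uM, where 0.0988%, 0.521% and 11.3% of genes were called lower. The largest adjusted p among the 5 at 0.4 uM was 0.0194. Interferon pathway genes called by limma were 0 of 48 at each of the lower 3 doses, with 1, 2 and 8 at an unadjusted p below 0.05, and 7 fell at 10 uM. Without KO replicate 2 at 0.4 uM in the fit, 0, 2, 16 and 30 of 47 fell at 0.0006, 0.016, 0.4 and 10 uM.

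The calls at 10 uM in NTC cells also rested on single libraries of the compared groups. Slfn2 was lost without NTC replicate 1 at 0 uM (-1.21, adjusted p = 0.11), replicate 2 (-1.31, adjusted p = 0.0623) or replicate 3 (-1.17, adjusted p = 0.104), and without replicate 1 (-1.24, adjusted p = 0.0921) or 2 (-1.08, adjusted p = 0.144) at 10 uM. Slfn8 was lost without replicate 1 at 0 uM (-2.56, adjusted p = 0.0698), replicate 1 at 10 uM (-2.62, adjusted p = 0.0538) or replicate 2 at 10 uM (-2.54, adjusted p = 0.0642), and Slfn5 without the last (-2.93, adjusted p = 0.0531). This left 2, 2 and 1 called members in these 3 settings.

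In Adar1 KO macrophages Slfn1, Slfn2, Slfn4, Slfn5 and Slfn8 were high up to 0.016 uM and low at 10 uM. Slfn1 means were 8.49, 8.83 and 9.26 at 0, 0.0006 and 0.016 uM and 1.57 at 10 uM, and Slfn5 means 7.93, 7.76 and 7.82 and then 1.28. Against no inhibitor, none of the 7 was called by limma or had an unadjusted p below 0.05 at 0.0006 uM (2.34% of genes called) or at 0.016 uM (6.21%). At 10 uM 6 of 7 fell, against 31.9% of genes called lower. Slfn1 fell by 6.92 (121-fold, adjusted p = 1.15e-07), Slfn5 fell by 6.65 (101-fold, adjusted p = 3.2e-08) and Slfn8 fell by 6.00 (64-fold, adjusted p = 1.97e-08). Slfn4 fell by 4.73 (26.5-fold, adjusted p = 8.86e-07) and Slfn2 fell by 2.82 (7.04-fold, adjusted p = 2.13e-07). For these 5 genes all 4 treated libraries were below all 3 untreated ones, as for 31% of all genes. Slfn3 fell by 1.22 (adjusted p = 0.0388) with overlap, and its call was lost without KO replicate 1 (-1.27, adjusted p = 0.0675) or 3 (-0.91, adjusted p = 0.175) at 0 uM or replicate 2 (-1.13, adjusted p = 0.0799) or 4 (-0.83, adjusted p = 0.163) at 10 uM. Slfn9, at 5.67, 6.31, 6.11 and 6.17, was not called (-0.38, adjusted p = 0.44), though it was without KO replicate 2 at 0.4 uM (adjusted p = 0.0216), where 33.4% of genes were called lower. Of 48 interferon pathway genes 36 fell and 4 rose at 10 uM, Adar among those that fell (by -4.61, adjusted p = 8.68e-10).

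At 0.4 uM in the knockout, 4 of 7 were called lower with all libraries, where 11.5% of genes were: Slfn5 (-3.39, adjusted p = 0.0038), Slfn8 (-2.24, adjusted p = 0.0255), Slfn4 (-2.03, adjusted p = 0.0403) and Slfn1 (-2.60, adjusted p = 0.0423). The 3 libraries differed so much that leaving out any of them, or an untreated one, changed the count. Without replicate 2 all 7 were called lower, where 14.9% of genes were, from -5.28 for Slfn5 (adjusted p = 1.68e-09) and -4.90 for Slfn1 (adjusted p = 1.52e-10) to -0.45 for Slfn9 (adjusted p = 0.0414). Without replicate 1 at 0.4 uM none was called (Slfn5 -1.90, adjusted p = 0.0542; Slfn8 -1.03, adjusted p = 0.279; Slfn4 -0.90, adjusted p = 0.364; Slfn1 -1.03, adjusted p = 0.409), and without replicate 3 Slfn1 (-1.88, adjusted p = 0.205), Slfn4 (-1.34, adjusted p = 0.234) and Slfn8 (-1.62, adjusted p = 0.156) lost their calls while Slfn9 was called higher (1.22, adjusted p = 0.0498). Without untreated KO replicate 1, Slfn1 (-2.61, adjusted p = 0.101), Slfn4 (-1.69, adjusted p = 0.169) and Slfn8 (-2.18, adjusted p = 0.0786) lost theirs, as they did without untreated replicate 2 (-2.67, -2.14 and -2.29, adjusted p = 0.0788, 0.0686 and 0.0534), and Slfn1 did without untreated replicate 3 (-2.52, adjusted p = 0.0872).

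Whether the inhibitor acted more strongly in the knockout was tested as an interaction. At 10 uM the drop was larger in the knockout for Slfn8 (-3.33, adjusted p = 0.0108), Slfn4 (-3.24, adjusted p = 0.012), Slfn5 (-3.13, adjusted p = 0.033) and Slfn2 (-1.58, adjusted p = 0.0229), so 4 of 7 were called where 20% of genes were called lower. Slfn1 was at -3.10 (adjusted p = 0.0583) and was called without KO replicate 1 at 10 uM (-3.40, adjusted p = 0.0487) or without KO replicate 2 at 0.4 uM (adjusted p = 8.78e-06), a setting with 6 calls where 22.7% of genes were called lower. Slfn9, at -0.57 (adjusted p = 0.492), joined in that setting alone (adjusted p = 0.0284). Slfn5 lost its call without NTC replicate 2 (-2.98, adjusted p = 0.0647) or 3 (-2.96, adjusted p = 0.0676) at 0 uM, NTC replicate 1 (-2.82, adjusted p = 0.0784) or 3 (-2.84, adjusted p = 0.0759) at 10 uM, KO replicate 1 (-3.02, adjusted p = 0.0651) or 2 (-3.07, adjusted p = 0.0567) at 0 uM, or KO replicate 2 at 10 uM (-2.99, adjusted p = 0.0569). Slfn2 lost its call without KO replicate 3 at 0 uM (-1.39, adjusted p = 0.0613) or NTC replicate 3 at 10 uM (-1.44, adjusted p = 0.058), and the latter left 2 calls. At 0.016 uM none of the 7 was called by limma and 1 (Slfn1, 2.82) had an unadjusted p below 0.05, where 0.00897% of genes were called and 9.93% had an unadjusted p below 0.05. At 0.4 uM none was called by limma or had an unadjusted p below 0.05, where 4.76% were. Without KO replicate 2 at 0.4 uM, Slfn1 was called at 0.016 uM (adjusted p = 0.0192) and 4 members were at 0.4 uM, Slfn4 (-2.73, adjusted p = 7.76e-07), Slfn8 (-2.28, adjusted p = 2.48e-05), Slfn5 (-2.91, adjusted p = 0.0019) and Slfn1 (-1.97, adjusted p = 0.00937). In that setting 0.0359% of genes were called higher at 0.016 uM and 5.53% lower at 0.4 uM. Of 48 interferon pathway genes 24 were lower and 4 higher in the interaction at 10 uM.

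**Figure D5:**
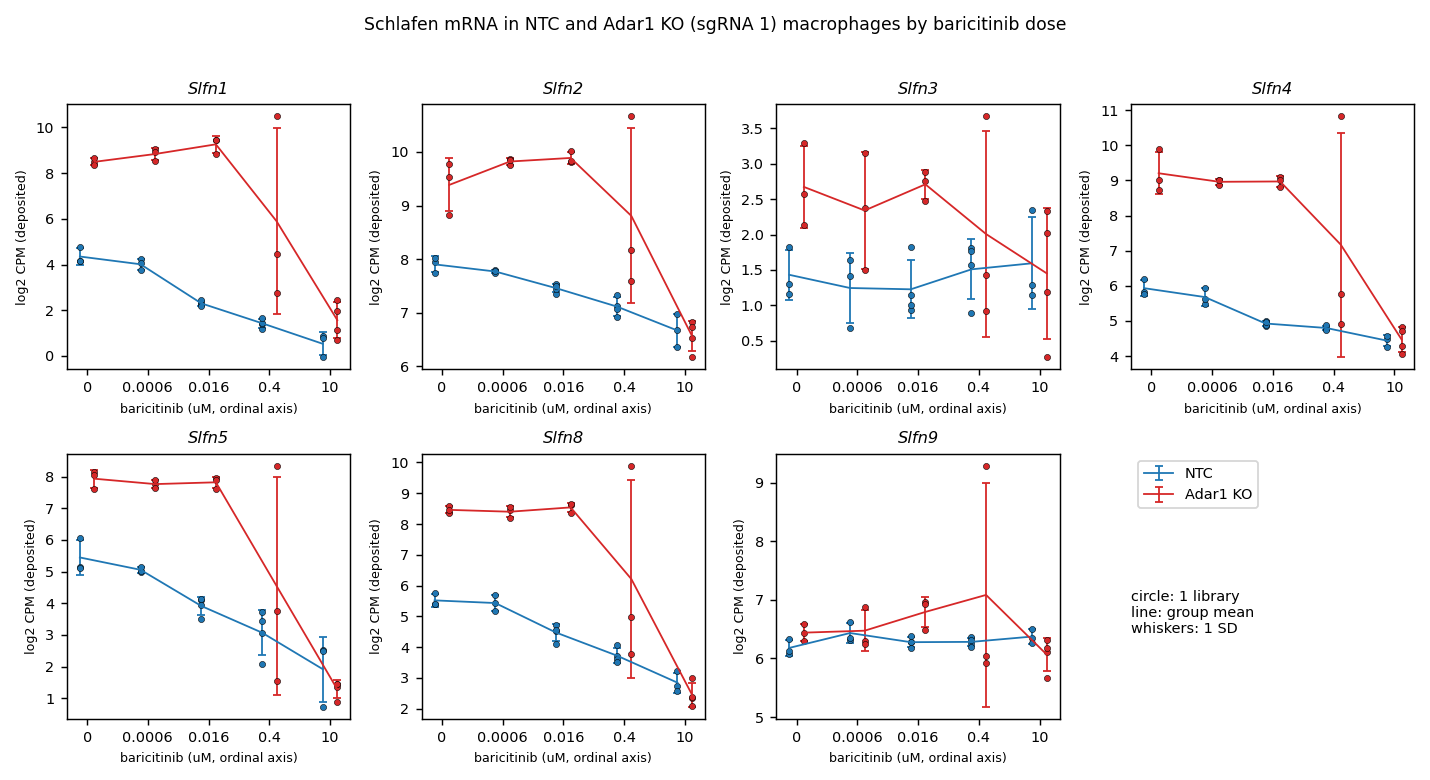
Level of each Schlafen gene (log2 CPM) in NTC and Adar1 KO sgRNA 1 macrophages by baricitinib dose (uM, drawn as evenly spaced steps); circles are libraries, lines join group means and whiskers are 1 SD. Slfn1 in the knockout read 8.35 to 9.47 up to 0.016 uM and 0.70 to 2.44 at 10 uM, and at 0.4 uM replicate 2 lay at 10.48 with the other libraries at 2.75 and 4.45.

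Members that moved together did so closely across the 33 baricitinib libraries, which share their normalization. Slfn8 was most like the interferon target Oas1a (Pearson r = 0.994, n = 33 libraries), Slfn1 most like the nucleic acid sensor Zbp1 (r = 0.988) and Slfn4 most like the antiviral gene Bst2 (r = 0.988). Slfn2 (r = 0.979) and Slfn5 (r = 0.976) were most like Slfn8. Slfn9, most like Pnpt1 (r = 0.886), and Slfn3, most like Rmdn3 (r = 0.809), followed other genes less closely. Without KO replicate 2 at 0.4 uM (n = 32), r was 0.57 for Slfn9 with Pnpt1, 0.765 for Slfn3 with Rmdn3 and 0.976 to 0.994 for the other 5 pairs. In the 27 libraries of the brain set the closest genes were others: Ms4a4c for Slfn1 (r = 0.951), Ptger2 for Slfn2 (r = 0.956), Ifi204 for Slfn5 (r = 0.921), Lrrk2 for Slfn4 (r = 0.879), Il1b for Slfn8 (r = 0.876), Mlkl for Slfn9 (r = 0.871) and Raet1e for Slfn3 (r = 0.849). Without microglia replicate 8 and ER-Hoxb8 MLC replicate 6 (n = 25), also chosen after the values were seen, these ranged from 0.847 to 0.955.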

How the data were processed

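RNA from 92 libraries of FVB mouse progenitors, monocytes, macrophages, microglia-like cells and microglia was sequenced as paired reads of 100 bases (150 for the baricitinib libraries). The authors trimmed reads with fastp, quantified them with kallisto 0.46.0 on Ensembl cDNA, summed to genes with tximport and deposited log2 TMM-normalized CPM values made with edgeR. CPM was rebuilt by subtracting the lowest value of each of 6 sets of columns, and depth was estimated from the smallest step between values.

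Members and lists were chosen with earlier results of these data known. Contrasts among groups of a set were fitted with limma 3.58.1 in R 4.3.3 (group means, eBayes with trend, after a filter that kept genes over 1 CPM in 3 or more libraries, or 6 or more in the brain set). A gene was called at a Benjamini-Hochberg adjusted p below 0.05, and fits were tested on simulated data. Log2 differences, intervals at 95% and p-values come from these fits, with library numbers as in the groups described. An interferon pathway list and marker lists of 14 cell types were counted. Shared words and promoters were read with Python 3.11.15. Named genes were the members, other Slfn symbols, preselected pathway genes and the closest genes by correlation. Libraries of 2 groups with the same replicate number deviated together in every pair (r above 0.1, 3 or more pairs) for day 4 cells against ER-Hoxb8 progenitors (0.23 to 0.43) and for sgRNA 1 against NTC progenitors (0.16 to 0.35), of 27 comparisons checked. Alternatives changed the offset, filter, threshold, normalization, library weights, blocking and libraries. NTC macrophages replicate 2 entered no test.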

Additional observations from a re-analysis of the deposited data

Results flagged for a closer look

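2 libraries stood far from the rest of their group for a Schlafen gene, by Dixon's test at the 95% level in 49 combinations of gene and group with 4 to 9 libraries. Slfn2 was at 9.34 in Adar1 KO sgRNA 2 macrophages replicate 5, where the nearest of the other 4 libraries was at 9.22. Slfn9 was at 5.65 in microglia replicate 8, where the nearest library was at 4.34, and this is the library with the high neuron and oligodendrocyte marker sums. Chance alone gives such a library in about 1 of 20 groups, and no cause was tested.

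The effect of guide 1 against Adar differed between macrophages and progenitors for all 7 members by the interaction test, by 5.69 for Slfn1, 1.78 for Slfn2, 1.27 for Slfn3, 3.76 for Slfn4, 2.06 for Slfn5, 2.72 for Slfn8 and 2.76 for Slfn9. The effect of 10 uM baricitinib differed between Adar1 KO and NTC macrophages by -1.58 for Slfn2, -3.24 for Slfn4, -3.13 for Slfn5 and -3.33 for Slfn8. All are log2 differences with the limma adjusted p-values given in the results.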

How the results depend on the processing

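Of 3186 values of single genes under an alternative, 2995 kept their side of the threshold, 82 passed it newly and 105 no longer passed it. Another 4 changed sign with a call in the main or the alternative fit. A change of sign without a call in either fit was counted as unchanged. The number of called members stayed within 1.5 times in all 31 comparisons with a pseudocount of 1, quantile normalization or a replicate block. The block changed no call in the 2 comparisons where the numbers paired the libraries, and elsewhere 3 single values newly passed the threshold and 1 no longer did. Without a filter on low values it changed for the 0.4 uM dose in Adar1 KO (2 called instead of 4). With a log2 difference of at least 2 required, ER-Hoxb8 against BMD MLCs kept 1 of 3 calls, and 22 single values lost theirs.

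With libraries weighted by their quality (arrayWeights in limma), 31 single values newly passed the threshold, 1 no longer did and 2 changed sign with a call. The number of called members rose beyond the fold limit used above in 10 comparisons, and only these are listed. It was 6 for BM monocytes against BM progenitors and 1 for ER-Hoxb8 against BMD macrophages. It was 7 for ER-Hoxb8 MLCs against macrophages and 7 for BMD MLCs against microglia. It was 1 for Adar1 KO against NTC at 10 uM, and 1 and 5 for 0.016 and 0.4 uM in NTC. It was 7 for 0.4 uM in Adar1 KO, and 1 and 4 for the interactions at 0.016 and 0.4 uM. In the same order, the weighted fits called 43.6%, 22.9%, 49.1%, 41.4%, 50.9%, 0.395%, 2.06%, 45.6%, 3.77% and 28.0% of all genes in either direction. With WTHox libraries alone 5 members were called between MLCs (5.68% of all genes called higher), and without the ER-Hoxb8 progenitors in the fit 5 were called between BM monocytes and progenitors.

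Leaving out 1 library at a time left 18 of 31 comparisons within 1.5 times. In the other 13 the calls ranged from 1 to 1 (3 with all libraries) for BM monocytes, 1 to 3 for ER-Hoxb8 progenitors, 0 to 2 for day 4 cells, 2 to 5 between MLCs, 2 to 6 and 0 to 1 for Adar1 KO against NTC at 0.4 and 10 uM, 0 to 3, 0 to 5 and 1 to 5 for 0.016, 0.4 and 10 uM in NTC, 0 to 7 for 0.4 uM in Adar1 KO, and 0 to 1, 0 to 4 and 2 to 6 for the interactions at 0.016, 0.4 and 10 uM. The values that changed sign with a call in the main or the alternative fit were Slfn9 and Slfn1 values at 0.4 uM. They were Slfn9 in Adar1 KO (0.64 with all libraries, -0.43 with weights, -0.45 to 1.22 with 1 library left out) and the Slfn1 interaction (-1.54 with weights, -1.97 to 1.89 with 1 left out). Leaving out Adar1 KO replicate 2 at 0.4 uM where it is not in the groups compared, and leaving out the ER-Hoxb8 progenitors, were chosen after seeing the data. The wider or narrower shared spread follows from the libraries in each fit, and the cause of other changes was not tested. At depths of 6.1 to 48.7 M reads, low values such as Slfn3 in microglia, with 6 of 9 libraries at or below 3 reads, are limited by counting.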

Other observations

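Other transcripts of the pathway and of the locus were read beside the Schlafen genes. Ifnb1 was at 0.03 to 0.62 in Adar1 KO sgRNA 2 macrophages and at the lowest value of the set in all 3 progenitor libraries of that guide. In ER-Hoxb8 progenitors replicate 1, which had the highest Slfn1 (8.22) and Slfn4 (6.45) of its group, Isg15 was at 3.23. It was at 2.35 and 0.33 in replicates 2 and 3, and Ifih1 was also highest in replicate 1 (4.82 against 4.58 and 4.68). Ifit1, Irf7 and Usp18 were instead highest in replicate 2 (2.49, 4.31 and 3.68), against -0.3, 3.06 and 3.13 in replicate 1. Among genes next to the cluster, Rffl was higher in BMD MLCs than in BMD macrophages by 3.08 (limma adjusted p = 1.24e-06) and Nle1 was lower in BM monocytes than in BM progenitors by -1.91. In the first contrast 2100 of 12518 genes were called higher, and in the second 816 of 12056 were called lower. At 10 uM baricitinib in Adar1 KO macrophages Rad51d, Nle1 and Ap2b1 were lower than without inhibitor by -1.42, -1.48 and -0.76, where 31.9% of all 11152 genes were called lower.

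Neutrophil and progenitor marker sums were also read in the cultured cells: NTC macrophages 1 and 3 held 20.2 and 15.5 CPM of neutrophil markers and 2.57 and 1.79 CPM of progenitor markers, and Adar1 KO sgRNA 1 macrophages 75.8 to 85.7 and 5.26 to 12.6 CPM. NTC progenitors held 18900 to 27000 CPM of progenitor markers, Adar1 KO sgRNA 1 progenitors 13900 to 19900 and Adar1 KO sgRNA 2 progenitors 3340 to 3900. Neither sum was used to adjust a value.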
